A study of Mus musculus with 55 samples.

Results

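The Hox genes of mouse embryos are described here, namely the 39 genes with symbols made of Hoxa, Hoxb, Hoxc or Hoxd and a number, among the 24421 genes of the embryo tables. They were chosen by symbol alone. Hox genes encode homeodomain transcription factors that give cells along the head-to-tail axis their regional identity. They lie in 4 clusters, Hoxa on chromosome 6, Hoxb on chromosome 11, Hoxc on chromosome 15 and Hoxd on chromosome 2, and genes with the same number (paralogs) descend from the same ancestral gene. Low-numbered genes switch on early and extend furthest towards the head, and high-numbered genes switch on late and mark the trunk and tail, in the order in which they lie in the cluster.

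The 3 embryos, labelled E9, came from oocytes with substitutions in the ADD domain, a histone H3 reader module, of both DNMT3A (genotype Dnmt3aADA/ADA) and its partner DNMT3L (genotype Dnmt3LD124A/D124A), fertilised in vitro with wild-type JF1 sperm and carried by pseudo-pregnant ICR females. Every embryo therefore had a mutant mother and a wild-type father, and the JF1 strain carries enough sequence differences to assign many reads to a parental allele. The mothers were homozygous for both mutations, and the embryos inherited 1 mutant copy of each gene. Oocyte libraries of the same series were used for a side comparison and comprised fully grown oocytes (FGOs) from females aged 10 to 12 weeks, with 18 wild-type, 8 DNMT3L-ADD, 8 DNMT3A-ADD and 8 double mutant cells, and 10 wild-type MII oocytes. Wild-type embryos were not analysed here, so no level below is a change relative to normal development.

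For each embryo the deposited tables held 7534598, 8547786 and 6998944 allelic counts, of which the Hox genes took 3616, 2069 and 2068. A level is given as allelic CPM, the counts of both alleles of a gene scaled to a total of 1000000 allelic counts in that embryo. A count of 0 allows up to 3 counts, or 0.398, 0.351 and 0.429 CPM in embryos 1, 2 and 3. Each embryo is 1 library, and intervals cover counting error only. Embryo 2 stood apart. Its counts were 60.5% maternal, against 52.7% and 51.8% in embryos 1 and 3, and its median maternal share was 71.2% on chromosome 6 and 71.0% on chromosome 9, against 55.6% to 59.4% on the other 17 autosomes. Genes of yolk sac endoderm summed to 4607 CPM in embryo 2, 1785 in embryo 3 and 184 in embryo 1, whereas genes of embryo heart, neural tube and blood summed to 75.1, 177 and 2567 CPM. In embryo 1 most of this last sum came from the globins Hbb-y and Hbb-bh1, at 1617 and 421 CPM, although all 8 genes of the list were highest there. The part of these tissues in the Hox levels was not tested.

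Hox transcripts were present in all 3 embryos, but in amounts and patterns that differed between them. The summed Hox level was 480 CPM in embryo 1, 242 CPM in embryo 2 and 295 CPM in embryo 3 (mean 339 ± 125, SD, n = 3). In these bulk libraries, fewer cells with Hox transcripts and less Hox RNA per cell cannot be told apart. Of the 25 Hox genes with at least 30 allelic counts over the 3 embryos, 17 (68.0%) were highest in embryo 1, 5 in embryo 2 and 3 in embryo 3. Of all 12231 genes that met this minimum of 30 counts, 36.6%, 33.8% and 29.6% were highest in embryos 1, 2 and 3. Between the highest and the lowest embryo, 18 of these 25 (72.0%) differed more than 3-fold, compared with 21.3% of the 12231 genes. Their median coefficient of variation was 79.6%, against 23.7% for those 12231 genes.

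The clusters contributed unequally. Hoxb was the largest in every embryo, at 329, 130 and 195 CPM in embryos 1, 2 and 3, or 68.6%, 53.8% and 65.9% of Hox counts. Hoxa was the most even, at 67.6, 75.9 and 66.0 CPM. Hoxd summed to 57.2, 27.8 and 31.9 CPM. Hoxc was the smallest and ranged from 25.7 CPM in embryo 1 to 7.96 CPM in embryo 2 and 2.86 CPM in embryo 3. Hoxa thus held a similar level in the embryos while each of the other clusters was highest in embryo 1.

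**Figure D1:**
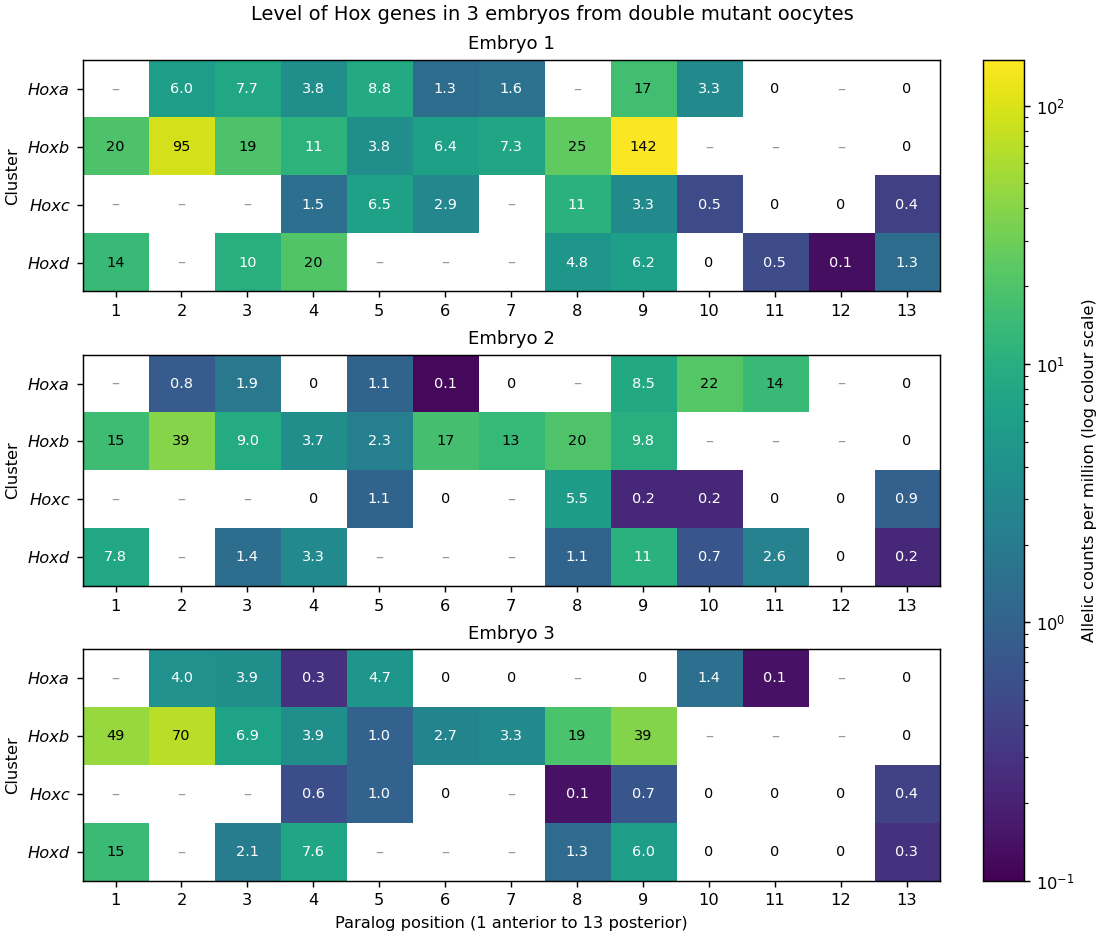
Level of the Hox genes in embryos 1, 2 and 3, in allelic CPM, with the cluster on the vertical axis and the paralog position on the horizontal axis. Colour is on a log scale, white cells are genes at 0 and dashes mark positions with no gene or with none shown, and Hoxb9 reaches 142 in embryo 1 but 9.83 in embryo 2.

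Along the axis order, the anterior class (paralogs 1 to 3, hindbrain and neck) summed to 190, 103 and 202 CPM in embryos 1, 2 and 3. The central class (4 to 8, neck and thorax) summed to 116, 68.7 and 45.6 CPM, and the posterior class (9 to 13, thorax to tail) to 174, 70.2 and 48.2 CPM. Hoxb9 alone gave 142, 9.83 and 39.1 CPM of the posterior sum. Anterior genes made up 39.5%, 42.6% and 68.3% of the Hox counts. Their share was thus largest in embryo 3, whose anterior level was near that of embryo 1 and whose central and posterior sums were the lowest. Central genes made up 24.2%, 28.4% and 15.4% (mean 22.7% ± 6.61, SD, n = 3), and posterior genes 36.3%, 29.0% and 16.3%.

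By paralog position the profile fell after positions 1 and 2 and rose again by position 9 in every embryo. Positions 1 and 2 summed to 51.6 and 101 CPM in embryo 1 and to 115 and 73.6 CPM in embryo 3. Among positions 1 to 9, levels were lowest at 6 and 7, at 10.6 and 8.89 CPM in embryo 1 and 2.71 and 3.29 CPM in embryo 3, and peaked again at position 9, at 168 and 45.9 CPM. Most of this second peak was Hoxb9, at 142 and 39.1 CPM in embryos 1 and 3. Beyond position 9 these embryos were nearly empty, with 3.85 and 1.43 CPM at position 10 and 0.531 and 0.143 CPM at position 11. Embryo 2 was at 50.7 and 40.2 CPM at positions 1 and 2 and, among positions 1 to 9, lowest at 5, at 4.45 CPM. Its profile ran further to the posterior end, with 29.4 CPM at position 9, 22.9 CPM at position 10 and 16.7 CPM at position 11. Positions 12 and 13 were at 1.73 CPM or below in every embryo.

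**Figure D2:**
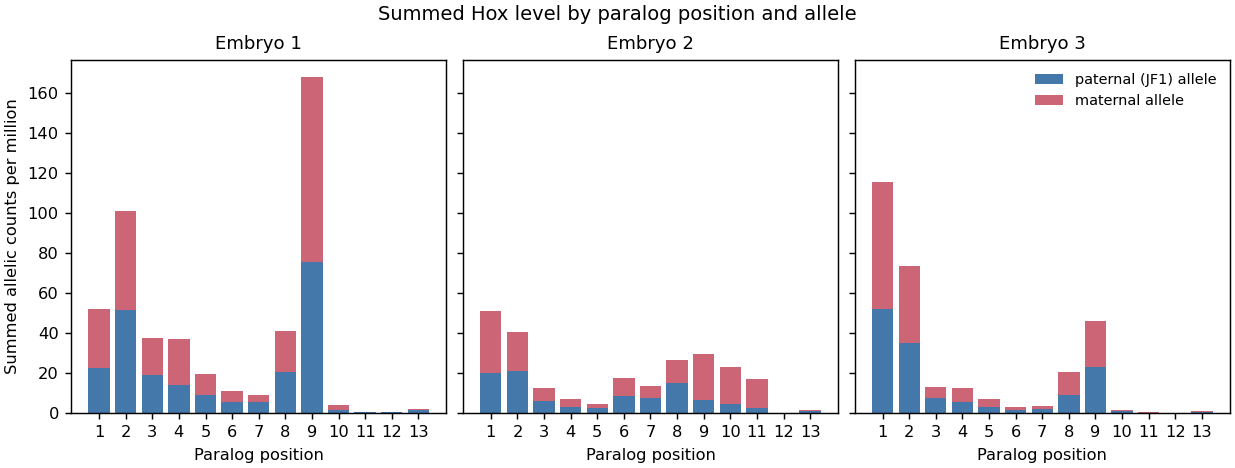
Summed Hox level (allelic CPM) at each paralog position in embryos 1, 2 and 3, with the paternal allele in blue and the maternal allele stacked above it in red. At position 10 embryos 1 and 3 are at 3.85 and 1.43, and embryo 2 is at 22.9 there and 16.7 at position 11, where most of each bar is maternal.

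Among the anterior genes, Hoxb2, which patterns the hindbrain and the facial motor neurons, was the highest member on average, at 94.9, 39.4 and 69.6 CPM in embryos 1, 2 and 3. Hoxb1, among the earliest Hox genes to switch on and needed for hindbrain segments, had another order. It was at 19.5, 15.4 and 49.2 CPM, so embryo 3 was highest, 2.52-fold above embryo 1. Hoxb3, expressed in the hindbrain and the pharyngeal arches, was at 19.2, 9.01 and 6.86 CPM. Hoxd1 was at 13.7, 7.84 and 14.6 CPM. Per kilobase of exon, which brings genes of different length to a common scale but not their number of strain differences, the mean was 24.7 for Hoxb9, 19.5 for Hoxb2 and 12.1 for Hoxb1, and the spread over embryos does not separate these neighbours in the order.

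In the central class, Hoxb8, known from spinal cord, was the steadiest of the named members, at 25.3, 19.8 and 19.1 CPM (mean 21.4 ± 3.42, SD, n = 3). Hoxd4, a gene of the hindbrain and cervical vertebrae, was at 20.3, 3.28 and 7.57 CPM. Its exons overlap those of Hoxd3 on the same strand, so reads may be shared. Hoxb6 and Hoxb7, genes of the thoracic region, were highest in embryo 2. Hoxb6 stood at 6.37, 17.3 and 2.71 CPM and Hoxb7 at 7.30, 13.5 and 3.29 CPM. Hoxa5, needed for the neck and lung, was at 8.76, 1.05 and 4.71 CPM, and Hoxb5, the lowest Hoxb gene above 0, at 3.85, 2.34 and 1.00 CPM. Hoxa6, the lowest Hoxa gene above 0, was found in embryo 1 at 1.33 CPM and in embryo 2 at 0.117 CPM, a single count, and was at 0 in embryo 3.

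The Hoxc cluster was concentrated in embryo 1. Hoxc8, a thoracic gene, was at 10.6 CPM in embryo 1, 5.50 CPM in embryo 2 and 0.143 CPM, 1 count, in embryo 3. Hoxc5 was at 6.50, 1.05 and 1.00 CPM, with exons that overlap Hoxc10 on the same strand. Hoxc10, at 0.531, 0.234 and 0 CPM, was the lowest Hoxc gene above 0. Hoxc11 and Hoxc12 had no count in any embryo.

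Posterior genes differed widely between the embryos. Hoxb9, a gene of the thorax and spinal cord, stood at 142 CPM in embryo 1, 9.83 CPM in embryo 2 and 39.1 CPM in embryo 3, that is 14.4-fold and 3.62-fold higher in embryo 1. Hoxa10, which acts in the lumbar region and the uterus, was instead highest in embryo 2, at 22.0 CPM against 3.32 and 1.43 CPM. Hoxa11, which acts in the forelimb, kidney and uterus, had 121 counts in embryo 2 (14.2 CPM), 0 in embryo 1 and 1 in embryo 3, which puts embryo 2 at least 35.6-fold higher than embryo 1 with the 3 counts that a count of 0 allows in a library. Hoxa11 exons overlap Hoxa11os on the opposite strand, and the strand setting of the count is not given in the sources used here. Hoxa11os itself had 54 counts in embryo 2 and 2 in each of the others.

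Hoxa9, Hoxd9 and Hoxd11 were chosen after their values were seen. Hoxa9 had 125 counts in embryo 1 (16.6 CPM), 73 in embryo 2 (8.54 CPM) and 0 in embryo 3. Hoxd9 was at 6.24, 10.8 and 6.001 CPM, and Hoxd11 at 0.531, 2.57 and 0 CPM. The last genes of the clusters were hardly detected. Hoxd12 had 1 count in embryo 1 and 0 in the others, Hoxd13 was at 1.33, 0.234 and 0.286 CPM, and Hoxa13 and Hoxb13 were at 0 in all 3 embryos.

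The promoters of 3 members that differ in where they were found are shown, Hoxb1, present in every embryo and highest in embryo 3, Hoxa9, found in embryos 1 and 2, and Hoxa11, with 121 counts in embryo 2 and at most 1 in the others. The sequences are the 250 bases before the start of the gene in RefSeq on GRCm38.p6, written along the gene's strand, with CpG dinucleotides, the main sites of DNA methylation, in capitals. Hoxb1 is at chr11:96365508-96365757 on the plus strand, Hoxa9 at chr6:52227371-52227620 and Hoxa11 at chr6:52245811-52246060 on the minus strand.
Hoxb1: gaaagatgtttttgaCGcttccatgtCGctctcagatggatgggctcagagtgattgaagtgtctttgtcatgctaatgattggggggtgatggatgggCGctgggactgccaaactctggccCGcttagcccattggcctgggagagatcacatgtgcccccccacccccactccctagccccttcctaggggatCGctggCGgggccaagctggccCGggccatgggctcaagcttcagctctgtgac
Hoxa9: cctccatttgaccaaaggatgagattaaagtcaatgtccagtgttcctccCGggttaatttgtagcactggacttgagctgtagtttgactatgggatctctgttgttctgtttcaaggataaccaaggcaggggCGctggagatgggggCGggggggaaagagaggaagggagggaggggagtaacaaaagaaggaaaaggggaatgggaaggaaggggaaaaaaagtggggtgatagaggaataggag
Hoxa11: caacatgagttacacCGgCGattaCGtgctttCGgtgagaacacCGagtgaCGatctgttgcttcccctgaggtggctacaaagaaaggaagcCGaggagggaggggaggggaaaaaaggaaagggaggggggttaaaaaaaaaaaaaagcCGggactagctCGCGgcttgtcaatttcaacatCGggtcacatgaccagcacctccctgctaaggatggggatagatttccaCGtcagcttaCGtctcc
CpGs numbered 7 in the Hoxb1 window, 3 in Hoxa9 and 13 in Hoxa11. RefSeq windows were matched for 22 of the 39 members (24 windows), with a median of 12.5 CpGs and a range from 2 to 35, against a median of 6 over all 32851 windows. The motif TTTATG, a form of the site bound by the Cdx factors, or its reverse complement CATAAA was present in 5 of the 24 Hox windows (20.8%) and in 10.8% of all windows, and in none of the 3 windows shown. DNA methylation was not analysed here.

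Which parental allele a Hox transcript came from was then compared, as the mothers alone carried the mutations. The maternal share of all Hox counts was 53.2% (Wilson 95% interval 51.6 to 54.9) in embryo 1, 59.98% (57.9 to 62.1) in embryo 2 and 53.4% (51.2 to 55.5) in embryo 3, close to the share of all counts in the same embryos (52.7%, 60.5% and 51.8%). Over the 15 Hox genes with at least 10 allelic counts in every embryo the median share was 52.1%, 56.2% and 52.4% (mean 53.6% ± 2.32, SD, n = 3). No Hox gene with at least 10 counts was silent on the maternal allele, and Hoxd11 in embryo 2, with 22 maternal counts and 0 paternal, was the only such gene with no paternal count.

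With edgeR's quasi-likelihood test and the embryo as a block, 19 Hox genes had enough counts to be tested and 0 passed a Benjamini-Hochberg adjusted p of 0.05, higher on either allele, as they did with DESeq2. Over the 10903 genes tested, 0.431% were called higher on the maternal and 0.138% higher on the paternal allele. At an unadjusted p under 0.05 there was 1 Hox gene, against 17.4% of all genes. This was Hoxd1, with a log2 maternal over paternal ratio of 0.93 ± 0.32 (SE; unadjusted p = 0.0363, adjusted p = 0.263 in edgeR) and a higher maternal count in 3 of 3 embryos. The median log2 ratio was 0.21 for the 19 Hox genes, of which 11 were above 0, and 0.24 for all genes tested, of which 74.4% were above 0. For Hoxb2, the member with the highest mean level, the log2 ratio was 0.06 ± 0.16 (SE). Missing the threshold does not show that the alleles were equal, and a sign flip of 3 embryos could not give a two-sided p below 0.25.

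Among the 15 genes with at least 10 counts in every embryo, Hoxd1 had the highest mean maternal share, at 62.1%, 62.7% and 71.6% (mean 65.5% ± 5.29, SD, n = 3). Hoxa10 followed with 64.0% in embryo 1, 80.3% in embryo 2 and 5 maternal of 10 counts in embryo 3. The lowest means of the 15 were those of Hoxb3, at 50.3%, 46.8% and 35.4%, and Hoxb7, at 45.5%, 43.5% and 47.8%. Hoxb1 and Hoxb2 were near equality, at 51.7%, 49.2% and 48.3% and at 50.5%, 48.1% and 54.6%. Hoxa2, which patterns the neural crest of the second pharyngeal arch and was chosen after its values were seen, had 13 maternal and 32 paternal counts in embryo 1 (28.9%), 4 and 3 in embryo 2, and 6 and 22 in embryo 3 (21.4%). Its adjusted p was 0.408 in edgeR.

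**Figure D3:**
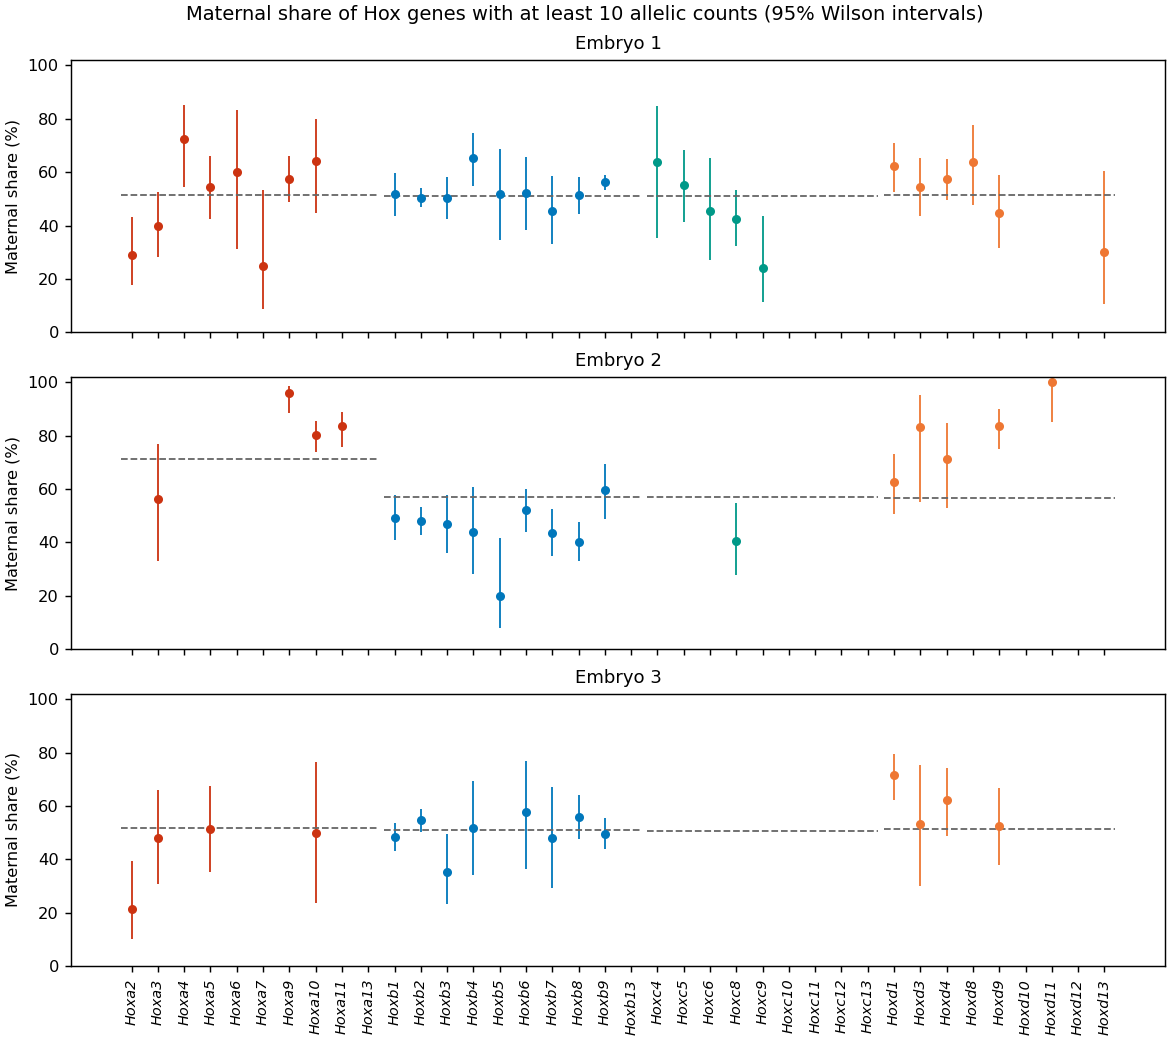
Maternal share (percent of allelic counts) of Hox genes with at least 10 allelic counts in embryos 1, 2 and 3, coloured by cluster, with 95% Wilson intervals for counting error. Dashed lines are the medians of the other genes on the same chromosome, and in embryo 2 the intervals of Hoxa9 to Hoxa11, Hoxd9 and Hoxd11 lie wholly above their line and those of Hoxb2, Hoxb5, Hoxb7, Hoxb8 and Hoxc8 wholly below.

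In embryo 2 the maternal share split by cluster. It was 77.2% for Hoxa and 78.6% for Hoxd, and 47.2% for Hoxb and 39.7% for Hoxc. Hoxa, Hoxd, Hoxb and Hoxc were at 52.8%, 56.4%, 53.5% and 43.8% in embryo 1. In embryo 3 Hoxa and Hoxb were at 53.5% and 51.4%, while Hoxd was at 64.1% (57.6 to 70.1) and Hoxc, on 20 counts, at 14 maternal (48.1% to 85.5%). Posterior genes together were 80.2% maternal in embryo 2 (76.8 to 83.2), against 55.0% and 50.7% in embryos 1 and 3. In embryo 2 anterior and central genes were 55.0% and 46.8% maternal. Most posterior counts there came from Hoxa and Hoxd, whose posterior genes were 84.3% and 86.9% maternal. Those of Hoxb were 59.5% maternal (48.8 to 69.4), and those of Hoxc had 3 maternal of 12 counts. Position and cluster thus cannot be told apart.

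The posterior genes with a high share in embryo 2 lay on 2 chromosomes. Hoxa9 was 95.9% maternal (88.6 to 98.6), Hoxa10 80.3% (74.1 to 85.4) and Hoxa11 83.5% (75.8 to 89.0), with a chromosome 6 median of 71.2%. Hoxd9 was 83.7% maternal (74.8 to 89.9), with a chromosome 2 median of 56.8%. These 4 genes and Hoxd11 were the only Hox genes of embryo 2 whose interval lay above the chromosome median, 5 of 20, and 5 others (Hoxb2, Hoxb5, Hoxb7, Hoxb8 and Hoxc8) lay below it. Of the other autosomal genes 28.2% lay above and 27.5% below, so the number of Hox genes was near that background. In embryos 1 and 3, 4 of 29 and 1 of 17 Hox genes lay above their chromosome median, against 20.6% and 22.2% of other genes.

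On the paternal allele alone, the posterior class was at 78.4, 13.9 and 23.7 CPM and made up 34.9%, 14.4% and 17.2% of paternal Hox counts, so embryo 2 had the lowest share of the 3 on this allele, against 29.0% with both. Hoxa11 kept 20 paternal counts in embryo 2 and Hoxa10 kept 37. Genes of decidua, the uterine tissue of the foster mother, summed to 40.9, 69.3 and 38.4 CPM, and 6 of the 9 were highest in embryo 2. Most of this sum was Bmp2, at 13.1, 28.1 and 18.9 CPM, and Hand2, at 12.7, 11.5 and 10.1 CPM. Hand2 is also counted among the limb genes below, so the sum is not a measure of decidua alone. The list was 47.7%, 67.9% and 49.1% maternal, which has the same limit. In embryo 2 its members ranged from 36.4% for Dio3, on 11 counts (15.2 to 64.6), to 100% for a pair of prolactins. These, Prl8a2 and Prl6a1, were named after their values were seen and stood at 0.398, 6.20 and 1.86 CPM and at 0, 3.16 and 0 CPM. Of 9 trophoblast genes 5 were at 0 in all embryos, and the list summed to 0.398, 6.79 and 0.286 CPM. The part of these tissues in the Hox shares was not tested.

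Genes beside the clusters were also counted by allele in embryo 2, and Skap1, Skap2 and Smug1, like Dio3 above, were chosen after their values were seen. Skap2 and Hibadh, next to the Hoxa cluster, were 72.6% and 69.3% maternal, near the 71.2% of chromosome 6. Mtx2, next to the Hoxd cluster, was 60.9% maternal (56.8 to 64.8), below the 78.6% of the Hoxd genes (72.9 to 83.3). Smug1 and Calcoco1, next to the Hoxc cluster, were 66.5% and 72.1% maternal, above the 39.7% of the Hoxc genes (28.9 to 51.6). The neighbours of Hoxd and Hoxc thus did not share the level of their cluster. The medians of their chromosomes 2 and 15 were 56.8% and 57.1%. Skap1, next to the Hoxb cluster, was 51.9% maternal on 27 counts (34.0 to 69.3). That interval holds both the 47.2% of the Hoxb genes and the chromosome 11 median of 56.8%, so it cannot tell them apart. In embryo 1 Skap2, Hibadh and Mtx2 were at 47.0%, 54.8% and 52.0%, and Smug1 and Calcoco1 at 49.7% and 62.5%.

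Of the 9 genes for Hox cofactors, the TALE homeodomain proteins that bind DNA together with Hox proteins, 8 were detected and 7 were highest in embryo 1, as were most Hox genes. They summed to 359, 204 and 266 CPM. Meis2 was at 109 CPM, 41.5 CPM and 65.2 CPM.

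The 13 regulators of Hox genes, which include the caudal-type factors and the enzymes and receptors of retinoic acid, summed to 490 CPM in embryo 1, 641 CPM in embryo 2 and 1077 CPM in embryo 3, although 8 of the 13 were highest in embryo 1. The sums follow a few abundant genes. Cdx1, which activates Hox genes in the posterior embryo, was at 12.5, 90.5 and 294 CPM, and Aldh1a2, which makes retinoic acid, at 185, 222 and 423 CPM. Rarg, a retinoic acid receptor, was at 62.0, 79.9 and 117 CPM.

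Tailbud and somite genes summed to 316, 210 and 616 CPM, with 8 of 9 highest in embryo 3. Nkx1-2, of the axial progenitors, was at 26.0, 94.3 and 247 CPM. Genes of the forebrain and midbrain, which lack Hox transcripts, summed to 62.4, 16.3 and 32.9 CPM. Limb and lateral plate genes summed to 145, 175 and 168 CPM, of which Msx1 took 93.6, 119.6 and 142 CPM, and other members differed more. Tbx5, of the forelimb and heart, was at 31.3, 6.55 and 12.6 CPM, and Tbx4, of the hindlimb and allantois, at 3.72, 32.1 and 1.14 CPM, highest in embryo 2 like Hoxa10 and Hoxa11. Hbb-y, the embryonic globin, was at 1617 CPM in embryo 1 but at 2.81 and 1.71 CPM in embryos 2 and 3. Embryo 1 thus had the most central and posterior Hox transcript together with the most blood and heart transcript. Its posterior lead rested on Hoxb9. The posterior genes of Hoxa and Hoxd were highest in embryo 2, at 44.7 and 14.3 CPM against 19.9 and 8.23 CPM in embryo 1. Those of Hoxc were highest in embryo 1, at 4.25 CPM. Embryo 3 had the most Hoxb1 together with the most tailbud transcript.

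**Figure D4:**
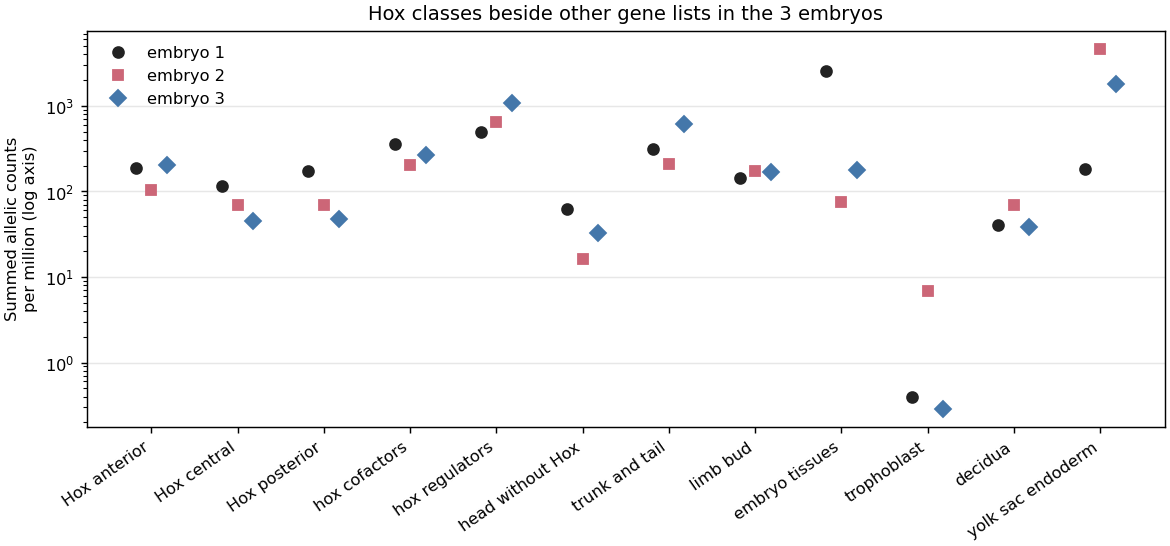
Summed allelic CPM (log axis) in embryos 1, 2 and 3 for the 3 Hox classes and 9 other gene lists. Posterior Hox genes are highest in embryo 1 (174, of which Hoxb9 is 142), as are the embryo tissue genes (2567, of which the globin Hbb-y is 1617), whereas yolk sac endoderm genes are highest in embryo 2 (4607).

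Across the 25 better covered Hox genes, the log2 levels of embryos 1 and 3 were the most alike (Pearson's r = 0.730), followed by embryos 2 and 3 (0.516) and embryos 1 and 2 (0.343). These are descriptions across genes, which are not independent replicates.

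In oocytes, from which the maternal alleles came, Hox transcripts were scarce. CPM here are gene counts scaled to the whole library, with no allele assigned, so they cannot be set against the embryo levels. The summed Hox level was 47.3 ± 8.59 CPM in wild-type FGOs (SD, n = 18) and 42.0 ± 5.43 CPM in double mutant FGOs (SD, n = 8). Most of it was Hoxa7, at 34.0 ± 5.88 and 28.2 ± 5.50 CPM, and its exons overlap Hoxaas3 on the opposite strand, which a library kit without strand information cannot tell apart. Hoxd13 was next, at 2.31 ± 1.56 and 3.81 ± 1.34 CPM. With edgeR, 0 of 11 Hox genes tested differed between double mutant and wild-type FGOs at an adjusted p under 0.05 and a fold change over 2, and 0 with DESeq2, against 1.65% of the 15726 genes tested. At an unadjusted p under 0.05 there were 2, Hoxd13 with a log2 change of 0.72 (adjusted p = 0.0896 in edgeR) and Hoxa7 with -0.29 (adjusted p = 0.103 in edgeR). The share of all genes at this unadjusted p was not computed. With no minimum fold change, 1926 of the 15726 passed even the adjusted p of 0.05, so 2 of 11 says nothing particular to Hox genes. With the class of mapped reads of each library as a covariate, the log2 changes were 0.58 and -0.12 (adjusted p = 0.394 and 0.682 in edgeR).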

How the data were processed

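Allele-specific RNA-seq of 3 embryos and RNA-seq of 52 single oocytes were used. The authors aligned reads to mm10 with STAR and deposited raw counts per gene, for embryos as a maternal and a paternal table. The tool that assigned alleles and the strand setting are not given in the sources used here. Of the value columns for embryos, 8 that are named as wild type and match no sample of the series were not used. The oocyte tables gave gene positions.

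Levels were counts of both alleles as CPM. Maternal shares needed at least 10 allelic counts and have Wilson 95% intervals. Alleles were tested with edgeR 4.0.16 (R 4.3.3), with the embryo as a block and its total as library size. FGOs were tested in 1 edgeR fit of 4 genotypes. DESeq2 1.42.0, other filters, scalings, covariates (the class of mapped reads from the study's supplementary data) and left-out embryos were alternatives. The tests were tested on simulated data. Figures were drawn with matplotlib 3.10.9.

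Per cluster the 2 highest members and the lowest above 0 were named, as were the highest member per paralog position and the 2 highest and 2 lowest mean maternal shares. Of most other lists at most 3 members were named, but more were named of the cluster neighbours and antisense genes and of the decidua genes. Some genes that these rules name are not reported here. Members and lists were chosen with earlier results of these data known. Libraries were taken as replicates by label. Nothing says which embryos shared a mother, so p-values measure the spread between these libraries only. No 2 embryos agreed within counting noise.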

Additional observations from a re-analysis of the deposited data

How the results depend on the processing

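The counts of Hox genes called were 0 under every alternative run, for the allelic test (no filter on low counts, at least 100 allelic counts, scaled totals, DESeq2, each embryo left out, and 0 with no replicate block) and for double mutant FGOs (other size factors, no filter, no minimum fold change, DESeq2, the class of mapped reads, wild-type and double mutant FGOs only). Over all genes, the allelic test called 47 higher on the maternal and 15 higher on the paternal allele in the main run. It called 621 and 109 with DESeq2, 16 and 6 without embryo 2, and 0 and 0 without embryo 3. The run without embryo 3 could thus not have called a Hox gene, and where few genes were called, 0 Hox genes says little. The FGO fit with the replicate number as a block also called 0 Hox genes. Numbers did not pair the FGOs, since same-numbered cells correlated between -0.502 and 0.426 and 0 of 8 best with their own number. The median maternal share was 48.5% once both alleles were scaled to the same total, instead of 53.6%, and 52.2% to 54.3% without 1 embryo. The summed Hox level was 186 CPM on the maternal and 153 CPM on the paternal allele, and 269 to 388 CPM without 1 embryo. The central share was 19.8% to 26.3% without 1 embryo. The paternal view of the posterior class (mean 22.2%, against 27.2% with both alleles) was added after seeing the data. Depth limits the shares of low clusters, as for Hoxc with 20 counts in embryo 3.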
